A study of Mus musculus with 16 samples.

Results

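The transcripts described here belong to the Notch pathway of ECs (endothelial cells, which form the inner lining of vessels). They are 10 of the 43346 genes in the deposited table and were picked by gene symbol: the receptors Notch1, Notch2 and Notch4, the ligands Dll4, Jag1 and Jag2, the DNA-binding factor Rbpj and the target genes Hes1, Hey1 and Hey2. Notch3 was kept out because mural cells, the pericytes and smooth muscle cells around vessels, are its usual source. All 10 were found in the table, had at least 10 counts in every library and were tested in every comparison.

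The study examined how ECs from young and aged lungs respond to bleomycin, a cytotoxic drug whose delivery to the airways produces lung injury and fibrosis. Lung ECs were sorted from FVB mice for RNA sequencing in 4 groups: Young Sham (2 months of age, n = 5 libraries), Young Bleo (2 months, n = 4), Aged Sham (18 months, n = 3) and Aged Bleo (18 months, n = 4). Sham mice received PBS into the trachea, Bleo mice received bleomycin by the same route, and lungs were taken a month later. Per the study's methods all groups carried a GFP reporter driven by the collagen gene Col1a1, and the sort kept cells that were positive for CD31 and negative for CD45, EpCAM and GFP. The labels only number the libraries, while the study describes the RNA as coming from lungs that also gave chromatin samples of single mice, so the libraries are taken as separate mice.

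In Notch signalling a ligand on one cell binds a receptor on its neighbour, the receptor is cut by ADAM proteases and gamma-secretase, and its freed intracellular part enters the nucleus. There it joins RBPJ and mastermind proteins on DNA and switches on transcriptional repressors of the HES and HEY families. In blood vessels DLL4 is known for restraining sprouting and for arterial identity, and NOTCH1 and NOTCH4 are the receptors typical of ECs.

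Promoter sequence was drawn from RefSeq (GRCm38.p6, the assembly that mm10 stands for), and 8 of the 10 members matched an entry, all but Hes1 and Hey1. The reference comes from another strain than the FVB mice studied here. Each sequence runs 5′ to 3′ on the gene's own strand, from 250 bases before the RefSeq start to 25 bases after it. Capitals mark 2 motifs searched on both strands: CGTGGGAA, a sequence that RBPJ binds, and AGGAAG, 1 form of the site of the ETS family. That family includes the endothelial factor ERG. Shorter or other forms of these sites were not searched or marked. The 2 motifs share no overlapping match in these windows. Dll4 and Jag2 are shown because they changed in opposite directions after bleomycin in young mice, Notch4 and Hey2 because they hold motif matches.
Dll4 (chr2:119325534-119325808, plus strand): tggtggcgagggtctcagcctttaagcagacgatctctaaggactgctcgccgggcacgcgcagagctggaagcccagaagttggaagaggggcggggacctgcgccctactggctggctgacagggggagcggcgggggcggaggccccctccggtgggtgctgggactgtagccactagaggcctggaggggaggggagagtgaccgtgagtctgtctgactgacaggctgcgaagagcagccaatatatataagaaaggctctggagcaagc
Jag2 (chr12:112929471-112929745, minus strand): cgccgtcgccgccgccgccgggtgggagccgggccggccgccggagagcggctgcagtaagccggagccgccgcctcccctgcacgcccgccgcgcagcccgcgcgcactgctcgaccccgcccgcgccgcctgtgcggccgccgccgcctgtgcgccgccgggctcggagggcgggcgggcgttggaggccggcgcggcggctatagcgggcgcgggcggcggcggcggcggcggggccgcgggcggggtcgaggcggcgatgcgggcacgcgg
Notch4 (chr17:34564045-34564319, plus strand): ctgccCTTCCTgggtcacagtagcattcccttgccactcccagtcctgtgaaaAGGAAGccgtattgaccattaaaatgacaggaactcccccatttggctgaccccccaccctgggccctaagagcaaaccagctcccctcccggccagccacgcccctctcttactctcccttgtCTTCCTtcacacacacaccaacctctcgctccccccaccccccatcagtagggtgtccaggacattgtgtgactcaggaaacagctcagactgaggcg
Hey2 (chr10:30842759-30843033, minus strand): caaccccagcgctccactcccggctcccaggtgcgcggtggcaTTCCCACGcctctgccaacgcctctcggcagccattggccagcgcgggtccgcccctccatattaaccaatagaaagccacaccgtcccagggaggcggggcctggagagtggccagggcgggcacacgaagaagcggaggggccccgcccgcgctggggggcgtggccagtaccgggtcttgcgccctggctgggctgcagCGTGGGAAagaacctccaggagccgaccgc
Hey2 held CGTGGGAA at -207 to -200 on the opposite strand and at -5 to 3 on its own strand, counted from the RefSeq start with no position 0. Of the 32851 promoter windows of this length, 226 (0.688%) held that motif and 3 held it at least 2 times. Notch4 held AGGAAG 3 times, at -245 to -240 and -73 to -68 on the opposite strand and at -197 to -192 on its own, a motif present in 32.3% of windows and at least 3 times in 1.53%. In the windows of Dll4, Jag2, Jag1, Notch1, Notch2 and both entries of Rbpj neither string of letters was present. That does not show that other forms of these sites are absent, and the Dll4 window holds the shorter string GGAAG. The motifs were chosen after the windows had been searched, and Hey2 and Notch4 are shown for their matches. The shares of windows therefore describe how common each string is and test no enrichment. These matches describe sequence alone, and no binding was measured in these libraries.

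Libraries held 20.9 to 71.0 mega-counts, of which 16032 to 66823 fell on the 10 members. Endothelial identity was present in all 16 libraries: the summed FPKM (fragments scaled to gene length and library size, a level per length) of 10 general endothelial markers was 1651 to 2967, with none at 0. That sum was lower after bleomycin at each age. It ran from 2604 to 2967 in Young Sham and 1778 to 2274 in Young Bleo, and from 2306 to 2522 in Aged Sham and 1651 to 2274 in Aged Bleo. Summed marker levels differed between groups. The 6 aerocyte markers, which mark the gas-exchange capillary cell, summed to 1513 to 1940 FPKM in Young Sham, 208 to 945 among Young Bleo, 1139 to 1779 among Aged Sham and 193 to 1271 among Aged Bleo libraries. The 8 arterial markers summed to 195 to 256, 418 to 550, 203 to 252 and 275 to 476 FPKM in the same order. The 6 lymphatic markers were at 262 to 359, 676 to 1523, 252 to 346 and 313 to 607 FPKM. The 10 mural markers were at 53.6 to 111, 19.8 to 50.3, 30.8 to 52.8 and 13.5 to 23.9 FPKM, and the 10 macrophage markers at 22.9 to 39.4, 147 to 437, 50.1 to 162 and 195 to 1396 FPKM. The 8 epithelial markers were at 69.3 to 577, 154.5 to 556, 141 to 659 and 168 to 431 FPKM, so they varied widely within each group. In such bulk samples fewer cells of a type and less RNA per cell cannot be told apart. The study's methods describe mice of both sexes, while every library held 1199 to 4912 counts of the Y-linked gene Ddx3y and 0 to 23 counts of Xist. Those methods also give RNA integrity by group, in ranges that lay higher for Bleo than for Sham at each age, with some overlap. The part of RNA integrity in the member values was not tested.

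Per length, the levels of the 10 members spanned a wide range. Over the 16 libraries the mean level was 25.4 FPKM for Hes1, 20.5 for Dll4, 15.9 for Hey1, 13.9 for Jag2, 8.49 for Notch4 and 4.31 for Notch1, and then fell to 1.22 for Jag1, 0.959 for Hey2, 0.537 for Rbpj and 0.206 for Notch2. Ranges over libraries overlapped between every pair of neighbours in this order except Notch1 (3.33 to 5.81 FPKM) and Jag1 (0.632 to 2.45 FPKM). Some of these levels are uncertain because of shared sequence. The processed pseudogene of Rbpj, Rbpj-ps3 on chromosome 6, matched it at 99.7% over 1441 bases and held 62 to 296 counts a library against 167 to 595 for Rbpj, and how reads that fit both were assigned is not stated. Notch1 shares 964 bases of exact sequence with the transcript 0610009E02Rik (269 to 2224 counts) and 414 with Gm13568 (176 to 1227 counts), and Dll4 shares 214 with Gm14207.

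**Figure D1:**
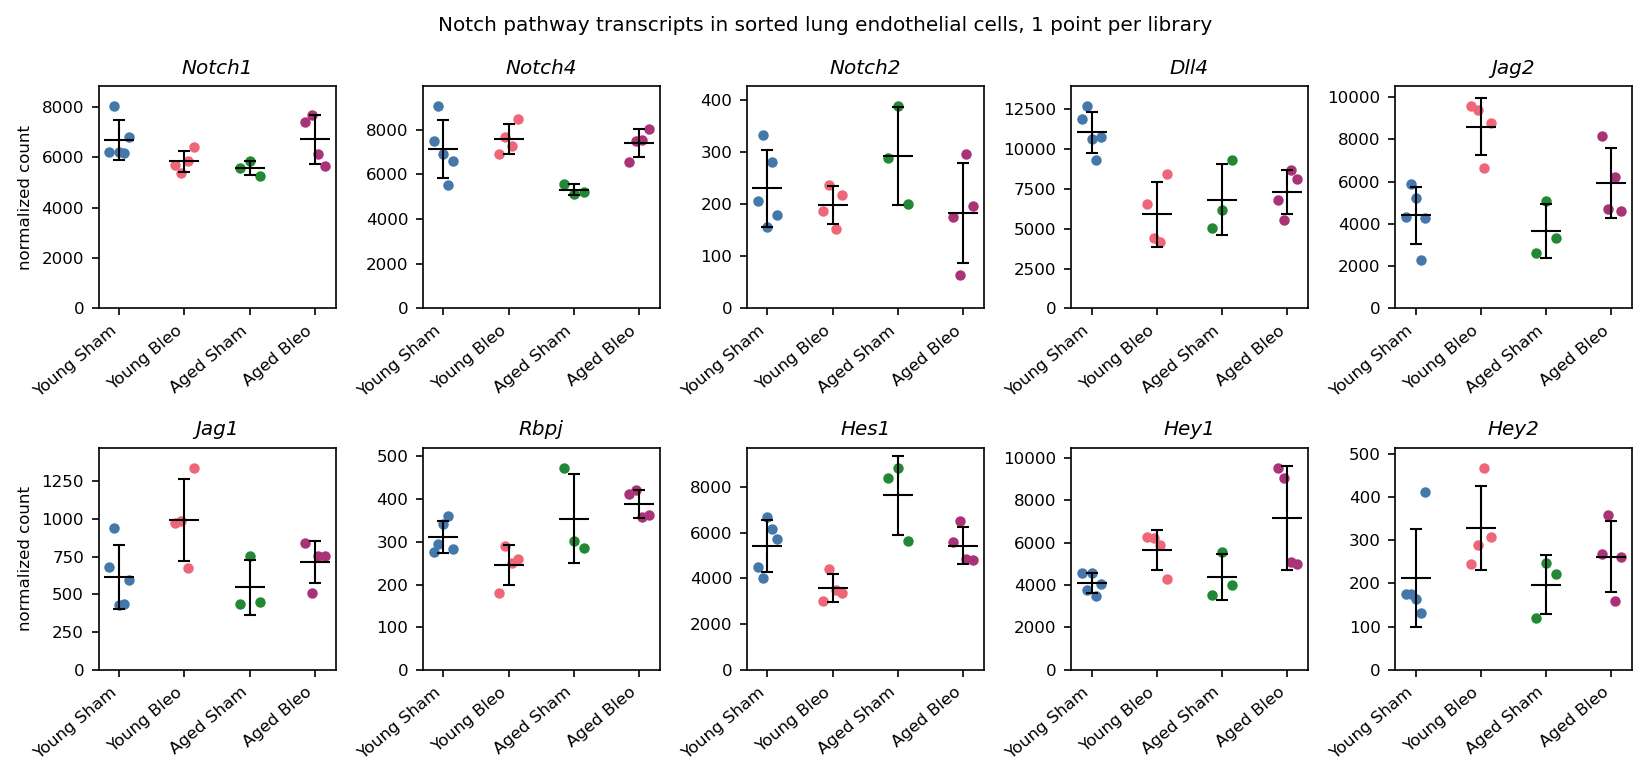
Normalized counts (count divided by DESeq2 size factor, linear axis from 0) of the 10 Notch pathway genes by group. Each point is a library and the bar and whiskers give the mean and SD. Young Sham lies above Young Bleo for Dll4 (9280 to 12680 against 4145 to 8456) and below it for Jag2 (2313 to 5900 against 6651 to 9573).

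The comparison of Young Bleo with Young Sham asked what bleomycin leaves behind in young lung ECs a month later. The 2 main ligands moved in opposite directions: Dll4, the ligand of tip and arterial cells, fell, and Jag2, a Jagged-type ligand, rose. A gene was called when its DESeq2 adjusted p was at most 0.05 and its log2 fold change at least 0.5 in size. By that rule 3 of the 10 members were called, 2 lower and 1 higher, where 13.9% of all 18515 genes tested were called. The members' median log2 fold change was -0.05, and that of all genes tested was 0.01.

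Dll4 stood at 11890, 12680, 10600, 9280 and 10760 normalized counts in the 5 Young Sham libraries and at 6546, 4434, 4145 and 8456 in the 4 Young Bleo libraries. All Young Bleo libraries lay below all Young Sham libraries. The log2 fold change was -0.91 (SE 0.23), a 1.87-fold lower level, with a DESeq2 adjusted p of 0.00174 and an edgeR adjusted p of 0.0212. The call held in each of the 9 alternative settings and each of the 9 fits that left out a library of these groups.

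Jag2 stood at 4340, 5900, 5210, 2313 and 4289 normalized counts in Young Sham and at 9573, 9377, 6651 and 8797 in Young Bleo, again without overlap. It rose by 0.96 on the log2 scale (SE 0.27), or 1.95-fold (DESeq2 adjusted p = 0.00405, edgeR 0.0246), and held in the same settings. Jag1, the ligand known to oppose DLL4 in sprouting vessels, was at 679, 942, 431, 436 and 595 normalized counts in Young Sham and 973, 987, 674 and 1338 in Young Bleo. These groups overlapped, and the log2 difference of 0.69 (SE 0.28) had an adjusted p of 0.0707. Jag1 was called when Young Sham 22 (0.89, adjusted p = 0.01) or Young Bleo 19 (0.84, adjusted p = 0.0351) was left out.

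Among the target genes Hes1, a repressor induced by Notch in many tissues, fell. It was at 4486, 4010, 6668, 6162 and 5717 normalized counts in Young Sham and 3012, 4425, 3500 and 3366 in Young Bleo, with 1 Young Bleo library inside the Young Sham range. The log2 fold change was -0.60 (SE 0.19), with a DESeq2 adjusted p of 0.0161 and an edgeR adjusted p of 0.0461. The Hes1 call was lost with limma voom (-0.57, adjusted p = 0.0505) and without Young Sham 23 (-0.51, adjusted p = 0.0605), Young Sham 24 (-0.55, 0.0508), Young Bleo 17 (-0.52, 0.0842) or Young Bleo 19 (-0.58, 0.0527). Hey1 and Hey2, related repressors that mark arterial endothelium, had positive differences that were not called. For Hey1 it was 0.47 on the log2 scale (SE 0.22, adjusted p = 0.144), and for Hey2 0.62 (SE 0.36, adjusted p = 0.259). Young Sham 25 held 412 normalized counts of Hey2, against 132 to 176 in the other Young Sham libraries, and without it Hey2 was called (1.01, adjusted p = 0.0113).

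The receptors and Rbpj were not called in young mice after bleomycin. The log2 difference was -0.20 for Notch1 (95% interval -0.43 to 0.04), 0.09 for Notch4 (-0.17 to 0.35), -0.22 for Notch2 (-0.94 to 0.50) and -0.34 for Rbpj (-0.72 to 0.03). The intervals of Notch1 and Notch4 were the narrowest of the 10 members. Markers moved in this comparison too: all 6 aerocyte and 5 of 10 mural markers were called lower, and 6 of 8 arterial, 4 of 6 lymphatic, 2 of 6 venous, 6 of 10 macrophage and 4 of 4 mesothelial markers higher. Of the 10 general endothelial markers 2 were called higher and 2 lower, of 5 general capillary markers 1 higher, of 7 lymphocyte markers 1 higher and of 8 epithelial markers 1 lower. Their part in the changes of Dll4, Jag2 and Hes1 was not tested.

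**Figure D2:**
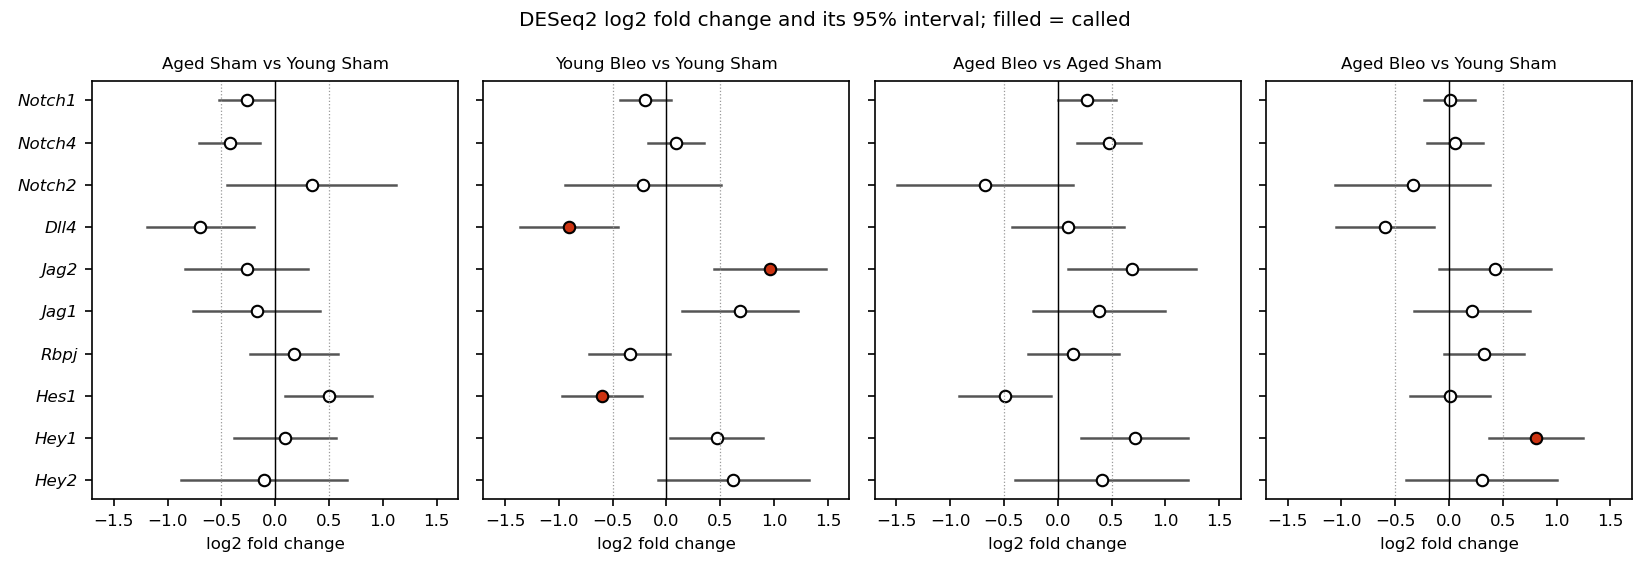
DESeq2 log2 fold change of each member in 4 comparisons, on a linear axis, with lines for the 95% interval, filled points for called genes and dotted lines at the size threshold of 0.5. Young Bleo against Young Sham holds 3 filled points (Dll4, Jag2 and Hes1) and Aged Bleo against Young Sham holds 1 (Hey1).

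The comparison of Aged Sham with Young Sham asked how age alone bears on these transcripts. None of the 10 members was called by DESeq2 or by edgeR, where DESeq2 called 3.35% of all genes tested. At an unadjusted p under 0.05 there were 4 of the 10 members (Dll4, Notch4, Notch1 and Hes1), beside 14.5% of all genes tested. The members' median log2 difference was -0.14, against 0.02 for all genes.

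Dll4 was at 5022, 6141 and 9307 normalized counts in Aged Sham, of which the highest lay just inside the Young Sham range that began at 9280. Its difference was -0.69 (SE 0.25, adjusted p = 0.11). Dll4 is on a list of endothelial genes that the study chose for being lower in these Aged Sham than in these Young Sham libraries, so its direction here is not independent evidence. The fit on these 2 groups alone called it (-0.70, adjusted p = 0.03), and so did the fit without Aged Sham 15 (-0.98, adjusted p = 0.0103). Notch4, the receptor found mainly in endothelium, was at 5579, 5116 and 5230 in Aged Sham and at 7496, 9048, 6920, 5518 and 6594 in Young Sham. Only Young Sham 24 reached down into the Aged Sham values, the difference was -0.42 (SE 0.14, adjusted p = 0.0789), and without that library it was called (-0.50, adjusted p = 0.00836).

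Notch1, the receptor shared by most ECs, was at 5587, 5851 and 5274 normalized counts in Aged Sham and at 6199, 8034, 6198, 6190 and 6812 in Young Sham. The groups did not overlap, yet the difference was small, -0.26 on the log2 scale (SE 0.13, adjusted p = 0.326). Hes1 leaned the other way, with 8401, 8839 and 5650 normalized counts in Aged Sham and a difference of 0.50 (SE 0.21, adjusted p = 0.198). The remaining 6 members had adjusted p-values from 0.734 to 0.941. None of the 6 aerocyte markers was called in this comparison, and 1 of 8 arterial, 2 of 5 general capillary and 2 of 10 mural markers were called lower. Called higher were 2 of 6 venous, 3 of 4 mesothelial, 1 of 6 fibroblast and 1 of 7 lymphocyte markers, and of the 10 general endothelial markers 1 was called higher and 1 lower. Their part in the member values was not tested.

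The comparison of Aged Bleo with Aged Sham asked what bleomycin leaves behind in aged lung ECs. Again none of the 10 members was called by DESeq2 or edgeR, where DESeq2 called 5.83% of all genes tested. Unadjusted p was under 0.05 for 5 of the 10 members (Notch4, Hey1, Jag2, Hes1 and Notch1) and for 19% of all genes tested. The median log2 difference of the members was 0.33, and that of all genes 0.0061.

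Notch4 came closest. It was at 6569, 7469, 7550 and 8023 normalized counts in the Aged Bleo libraries, all above the Aged Sham maximum of 5579. The log2 difference of 0.48 (SE 0.15) had a DESeq2 adjusted p of 0.0316 but lay under the size threshold, and the edgeR adjusted p was 0.115. Without Aged Bleo 1 it was called (0.53, adjusted p = 0.0401). Notch1 was at 7396, 7678, 6120 and 5673, with a difference of 0.27 (SE 0.14, adjusted p = 0.26) and 1 library inside the Aged Sham range.

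Hey1 was at 9538, 9072, 5102 and 4986 normalized counts in Aged Bleo and at 3529, 5582 and 4009 in Aged Sham. A pair of Aged Bleo libraries, 1 and 2, stood far above the others, and the other pair lay inside the Aged Sham range. The same libraries stood apart in their markers: macrophage markers summed to 1396 and 810 FPKM in Aged Bleo 1 and 2 against 342 and 195 in Aged Bleo 3 and 5, arterial markers to 476 and 450 against 275 and 278, and aerocyte markers to 193 and 332 against 1271 and 997. The difference was 0.71 (SE 0.25, adjusted p = 0.065), and it was called without Aged Sham 14 (0.93, adjusted p = 0.0158), Aged Bleo 3 (0.85, 0.0157) or Aged Bleo 5 (0.85, 0.0153). Jag2 was at 8147, 4711, 6232 and 4618 in Aged Bleo and 2602, 5064 and 3334 in Aged Sham, a difference of 0.69 (SE 0.30, adjusted p = 0.168). Jag2 was called without Aged Sham 14 (1.00, adjusted p = 0.0335). Hes1 was at 5571, 6526, 4829 and 4814, a difference of -0.49 (SE 0.22, adjusted p = 0.176).

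Dll4 in Aged Bleo, at 6786, 5573, 8687 and 8129 normalized counts, lay wholly within the Aged Sham range. The difference was 0.10 on the log2 scale, with a 95% interval of -0.42 to 0.61. Jag1 differed by 0.38 (SE 0.31), Hey2 by 0.41 (SE 0.41), Notch2 by -0.67 (SE 0.42) and Rbpj by 0.15, with adjusted p-values of 0.401 or more for each. In these aged groups 4 of 8 arterial, 2 of 5 general capillary, 1 of 6 venous and 7 of 10 macrophage markers were called higher, and 2 of 10 mural and 1 of 6 fibroblast markers lower. Of the 10 general endothelial markers 1 was called higher and 1 lower, and all 5 general capillary markers had positive differences with a median of 0.68. None of the 6 aerocyte markers was called, while all 6 had negative differences with a median of -1.13 on the log2 scale. Their part in the member values was not tested.

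The 2 responses to bleomycin were set against each other with an interaction term (aged response minus young response). No member was called by DESeq2 or edgeR, where DESeq2 called 0.381% of the 19440 genes tested, and unadjusted p was under 0.05 for 2 of the 10 members (Dll4 and Notch1) and for 8.1% of those genes. For Dll4 the difference of responses was 1.00 (SE 0.35, 95% interval 0.31 to 1.69, unadjusted p = 0.00441 in DESeq2, adjusted p = 0.27). That difference was called without Young Bleo 20 (1.22, adjusted p = 0.022) or Aged Sham 15 (1.29, adjusted p = 0.0425), the libraries with the highest Dll4 of their groups. They also had the highest aerocyte sums of their groups, 945 FPKM in Young Bleo 20 against 208 to 389 in the other Young Bleo libraries, and 1779 FPKM in Aged Sham 15 against 1139 and 1478 in the other Aged Sham libraries, and the part of this in the Dll4 values was not tested. For Notch1 it was 0.47 (SE 0.18, adjusted p = 0.367). For Jag2 it was -0.27, with a 95% interval of -1.06 to 0.52, and for Hes1 0.11, with an interval of -0.46 to 0.67, so these data do not separate the responses of those genes in the 2 ages.

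Aged Bleo was also compared with both young groups. Against Young Sham, a control shared with 2 of the comparisons above, 1 of the 10 members was called where 9.72% of all genes were. It was Hey1, which rose by 0.81 on the log2 scale (SE 0.22), or 1.75-fold, with a DESeq2 adjusted p of 0.00514 and an edgeR adjusted p of 0.0302. Young Sham held 4589, 3775, 4566, 3509 and 4058 normalized counts of Hey1, all below the lowest Aged Bleo library at 4986. The Hey1 call was lost without Aged Bleo 1 (0.64, adjusted p = 0.0659) or Aged Bleo 2 (0.67, adjusted p = 0.0575), the libraries of this group with the highest macrophage and arterial and the lowest aerocyte sums given above. Dll4 did not overlap between these groups either, at -0.60 (SE 0.23, adjusted p = 0.0758), and was called in the fit on the 2 groups alone (-0.60, adjusted p = 0.00512) or without Aged Bleo 3 (-0.69, adjusted p = 0.0474). Called higher were 4 of 8 arterial, 3 of 6 venous, 1 of 6 lymphatic, 1 of 5 general capillary, 7 of 10 macrophage, 3 of 4 mesothelial and 1 of 7 lymphocyte markers. Called lower were 2 of 6 aerocyte (median log2 difference -1.23), 9 of 10 mural, 4 of 6 fibroblast and 1 of 8 epithelial markers, and of the 10 general endothelial markers 1 was called higher and 2 lower. The part of these markers in the member values was not tested.

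Against Young Bleo none of the 10 members was called by either tool, where DESeq2 called 1.03% of all genes, and unadjusted p was under 0.05 for 2 of the 10 members (Rbpj and Hes1) and for 10.6% of all genes. Rbpj, the DNA-binding core of the pathway, was at 412, 421, 357 and 363 normalized counts in Aged Bleo and at 180, 290, 250 and 260 in Young Bleo. The difference was 0.66 (SE 0.20, adjusted p = 0.065 with DESeq2 and 0.341 with edgeR), and the pseudogene named above leaves the Rbpj counts uncertain. Hes1 differed by 0.60 (SE 0.20, adjusted p = 0.118), with all Aged Bleo libraries at 4814 or more and Young Bleo at 4425 or less. Between these groups 1 of 6 lymphatic, 1 of 10 mural, 1 of 6 fibroblast, 1 of 5 general capillary and 1 of 10 general endothelial markers were called lower and no marker higher. All 6 aerocyte markers had positive differences (median 0.77) and all 6 lymphatic markers negative ones (median -0.73). The part of these markers in the Rbpj and Hes1 values was not tested.

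The make-up of each role was described as the share of each of its 3 members in their summed FPKM, with no test. These shares leave out other genes of each role, among them the Delta-type ligand Dll1, named here after its values were seen. Dll1 had a mean level of 5.32 FPKM over the 16 libraries, above that of Jag1. It was at 954.5 to 2255 normalized counts in Young Sham and 1976 to 3245 in Young Bleo, and was not called (log2 difference 0.77, SE 0.33, DESeq2 adjusted p = 0.0954). Dll4 made up 71.2% ± 4.89 (SD, n = 5) of the FPKM of the 3 ligands for Young Sham, 39.4% ± 6.64 (n = 4) for Young Bleo, 63.7% ± 9.65 (n = 3) for Aged Sham and 54.7% ± 7.38 (n = 4) for Aged Bleo. Jag2 made up 26.3%, 56.2%, 32.9% and 41.8% in the same order, and Jag1 between 2.57% and 4.42%. Jag2 exceeded Dll4 per length in the mean of Young Bleo, though not in Young Bleo 20 (47.2% for Jag2 and 47.8% for Dll4). In Aged Bleo the Dll4 share ran from 45.0% to 62.5% between libraries. The ratio of Dll4 to Jag1 FPKM was 28.7 ± 6.35, 8.96 ± 1.49, 20.3 ± 9.73 and 15.6 ± 2.29 for these groups.

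Receptor make-up moved over a narrower range of shares than that of the ligands. Notch4 held 61.1% to 68.6% of receptor FPKM as group means, Notch1 30.0% to 36.3% and Notch2 1.25% to 2.58%, and in every library Notch4 was the larger. In Young Bleo the Notch4 share ran from 67.2% to 70.4% and lay just above the 59.7% to 67.1% of Young Sham, and the Notch1 share (27.9% to 31.4%) lay just below that of Young Sham (31.5% to 38.0%). Both shares overlapped between Aged Bleo and Aged Sham. Among the targets Hes1 held 66.0% in Young Sham and 72.3% in Aged Sham, and 48.5% in Young Bleo and 54.6% in Aged Bleo. Hey1 held 31.9%, 26.1%, 47.9% and 43.4% in that order, so that in both ages the Bleo libraries lay above the Sham libraries (25.9% to 38.2% against 42.5% to 55.0% in young, 20.6% to 30.0% against 38.3% to 50.7% in aged).

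**Figure D3:**
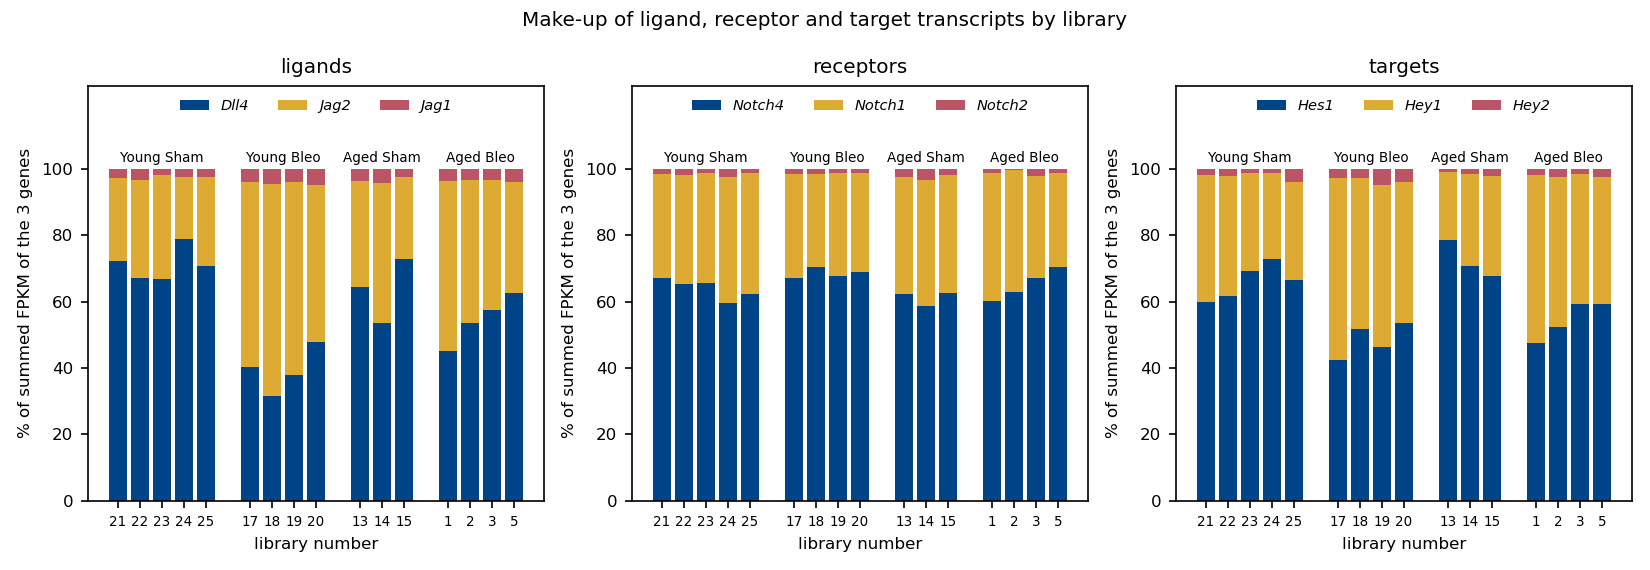
Stacked shares (percent of the summed FPKM of the 3 genes) of ligands, receptors and targets, 1 bar per library. The Dll4 share is 66.9% to 78.9% in Young Sham and 31.7% to 47.8% in Young Bleo, while the Notch4 share in the receptor panel is 59.7% to 67.1% and 67.2% to 70.4%.

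The rest of the pathway was read from 65 further genes in 5 lists, whose medians can be set beside a median over all genes of 0.01 in Young Bleo against Young Sham. In that comparison 11 of the 62 that were tested were called, beside the 13.9% of all genes given above. Of the 6 other receptors and ligands 4 were tested, and Notch3 was the gene called. It was at 778, 1429, 451, 788 and 483 normalized counts in Young Sham, 76.2, 76.9, 152 and 222 for Young Bleo, 380, 106 and 208 for Aged Sham and 59.6, 2.21, 104 and 205 for Aged Bleo. Notch3 fell by 2.58 on the log2 scale in Young Bleo (DESeq2 adjusted p = 0.00231, edgeR 0.0368) and by 3.08 in Aged Bleo against Young Sham (DESeq2 adjusted p = 0.000236, edgeR 0.0255). The mural markers, a list that includes Notch3, summed to 53.6 to 111 FPKM in Young Sham and 13.5 to 23.9 FPKM in Aged Bleo. The Notch3 difference of Aged Sham from Young Sham was not called in the fit on all libraries. The fit on those 2 groups alone called it (-1.77, adjusted p = 0.00369). The study's list, which holds Notch3 too, was chosen on that comparison.

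Of the 10 other target genes 9 were tested. In Young Bleo against Young Sham 2 rose and 1 fell, and the median of the 9 was 0.11. Gja4 and Gja5, which encode the arterial gap junction proteins connexin 37 and connexin 40, rose by 1.47 (SE 0.32, DESeq2 adjusted p = 0.00017, edgeR 0.00895) and 1.18 (SE 0.29, DESeq2 adjusted p = 0.000936, edgeR 0.0138). Gja4 ran from 12150 to 21990 normalized counts in Young Sham and from 26300 to 54490 in Young Bleo. Both genes are also on the arterial marker list. Nrarp, a feedback inhibitor that Notch induces, fell, from 1613, 1700, 2067, 1932 and 2834 normalized counts in Young Sham to 1332, 1418, 876 and 1309 in Young Bleo. Its log2 fold change was -0.72 (SE 0.20, DESeq2 adjusted p = 0.00387, edgeR 0.0248). In Aged Bleo Nrarp was at 1803, 1512, 2381 and 1954 and in Aged Sham at 1699, 1995 and 1935, which overlapped.

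In Aged Bleo against Aged Sham Gja4 differed by 1.53 (SE 0.37, DESeq2 adjusted p = 0.00228) and Gja5 by 1.13 (SE 0.33, DESeq2 adjusted p = 0.0169), and neither was called by edgeR (adjusted p = 0.0565 and 0.0865). Gja5 was not called without Aged Sham 13 or Aged Bleo 1. Against Young Sham the Aged Bleo libraries were higher in Gja4 by 1.18 (DESeq2 adjusted p = 0.00523), a call lost without Aged Bleo 1 or Aged Bleo 2, and in Gja5 by 1.15 (DESeq2 adjusted p = 0.0018). Heyl, a relative of Hey1 that mural cells also express, fell by 3.27 in Aged Bleo against Young Sham (DESeq2 adjusted p = 4.38e-05, edgeR 0.0183). It was at 5.49, 18.4, 209 and 116 normalized counts in Aged Bleo, 164, 231 and 279 in Aged Sham, 197, 287, 226 and 546 in Young Bleo and 711, 1695, 478, 544 and 780 in Young Sham. In the fit on all libraries Heyl was not called in Young Bleo or in Aged Sham, each against Young Sham. The fits on the compared groups alone called it lower in Young Bleo (-1.42, adjusted p = 0.00386) and in Aged Sham (-1.91, adjusted p = 0.00021). The mural sums given above moved the same way, and their part was not tested. Cxcr4, a chemokine receptor of tip cells, fell by 1.71 in Aged Sham against Young Sham (SE 0.37, DESeq2 adjusted p = 0.000473, edgeR 0.0408), lost that call with limma voom (adjusted p = 0.13) and is also on the list that the study chose on this comparison.

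Of the 21 nuclear cofactors 4 fell in Young Bleo against Young Sham and none rose, with a median of -0.01. They were the mastermind coactivator Maml3 (-1.01, DESeq2 adjusted p = 7.69e-05), the acetyltransferase Kat2b (-0.78, DESeq2 adjusted p = 0.00173) and the Groucho-type corepressors Tle4 (-0.97, DESeq2 adjusted p = 0.000315) and Tle1 (-0.64, DESeq2 adjusted p = 0.0337). Tle1 was not called by edgeR (adjusted p = 0.0778) and was lost without any of Young Sham 22, 23 and 25 and Young Bleo 17, 18 and 19. In Aged Bleo against Aged Sham Tle2 (1.07, DESeq2 adjusted p = 0.0153) and Tle3 (0.73, DESeq2 adjusted p = 0.0458) were called higher and not by edgeR (adjusted p = 0.0822 and 0.127). Tle2 was lost without Aged Sham 15 or Aged Bleo 1, and Tle3 without any of Aged Sham 13 and 15 and Aged Bleo 1, 2 and 5. Maml3 was also lower in Aged Bleo than in Young Sham (-0.71, DESeq2 adjusted p = 0.0118, edgeR 0.0555), a call lost without Aged Bleo 1 or 2. Maml2 was called lower in Aged Sham against Young Sham (-0.57, DESeq2 adjusted p = 0.0265, edgeR 0.121) and kept that call in only 1 of the 8 fits that left out a library, the fit without Young Sham 22.

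Of the 18 genes of receptor glycosylation, ligand and receptor trafficking 1 rose and 1 fell in Young Bleo against Young Sham, with a median of -0.20. Dtx1, a ubiquitin ligase of the Deltex family that binds Notch, rose by 1.58 (SE 0.36, DESeq2 adjusted p = 0.000251, edgeR 0.00977), from 151 to 390 normalized counts in Young Sham to 308 to 1093 in Young Bleo. Dtx1 was lower in Aged Bleo than in Young Bleo by DESeq2 (-1.48, adjusted p = 0.0147) and not by edgeR (adjusted p = 0.219), and that call was lost without Young Bleo 17, Aged Bleo 2 or Aged Bleo 5. Mfng, a Fringe glycosyltransferase that adjusts which ligands a receptor prefers, fell by 0.53 in Young Bleo (DESeq2 adjusted p = 0.00827, edgeR 0.0396), by 0.75 in Aged Bleo against Aged Sham (DESeq2 adjusted p = 0.00186, edgeR 0.0515) and by 0.71 in Aged Bleo against Young Sham (DESeq2 adjusted p = 0.00029, edgeR 0.0142). At each age the Bleo and Sham libraries did not overlap in Mfng. The young call held in 8 of the 9 alternative settings and was lost without Young Sham 21, Young Sham 24 or Young Bleo 17. The call in Aged Bleo against Aged Sham held in 5 of the 9 alternative settings and in each of the 7 fits that left out a library.

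Dtx2, another Deltex gene, was called lower in Aged Sham against Young Sham (-0.62, DESeq2 adjusted p = 0.025) and higher in Aged Bleo than in Aged Sham (0.63, DESeq2 adjusted p = 0.0238), comparisons that share the Aged Sham libraries. Neither was called by edgeR (adjusted p = 0.126 and 0.101). Each Dtx2 call stood in only 2 of the fits that left out a library: without Young Sham 23 or Aged Sham 15 for the former, and without Aged Sham 15 or Aged Bleo 1 for the latter. Mib1, the ubiquitin ligase that lets ligands be internalised, was called higher in Aged Bleo against Young Sham (0.67, DESeq2 adjusted p = 0.0175, edgeR 0.0553), a call lost without any of Young Sham 21, 24 and 25 and Aged Bleo 1 and 2. Of the 10 receptor cleavage genes, whose median in Young Bleo against Young Sham was 0.11, Psen2, a catalytic subunit of gamma-secretase, was called, higher in Young Bleo (0.80, DESeq2 adjusted p = 0.0155, edgeR 0.0396) and in Aged Bleo (0.89, DESeq2 adjusted p = 0.00808, edgeR 0.0353), both against Young Sham. The former was lost without Young Sham 22, Young Bleo 17 or Young Bleo 19 and the latter without Aged Bleo 1 or 2.

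**Figure D4:**
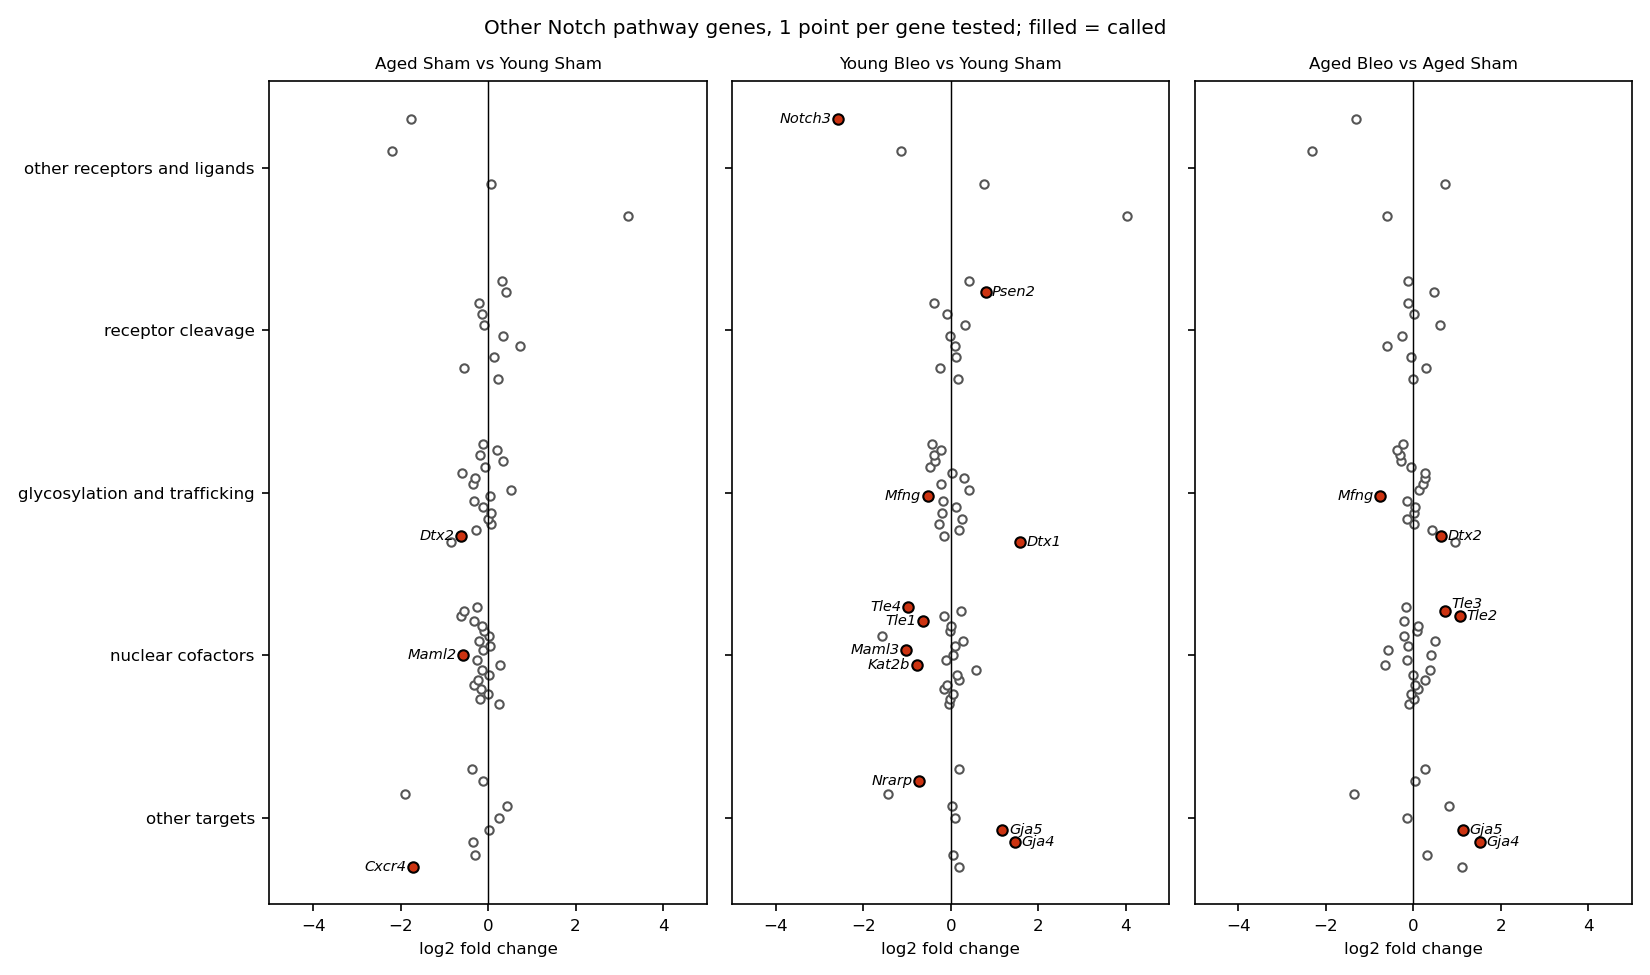
DESeq2 log2 fold change (linear axis) of the other Notch pathway genes, 1 point per tested gene, by list, in 3 comparisons. Filled, named points are called genes among the 62 tested: 3 in Aged Sham against Young Sham, 11 in Young Bleo against Young Sham and 6 in Aged Bleo against Aged Sham. Of all genes tested 3.35%, 13.9% and 5.83% were called in the same order.

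For the 4 members with the smallest adjusted p, the genes with the most similar pattern were found by Pearson correlation of log2(normalized count + 1) over the 16 libraries, among 13773 genes. Dll4 was most like Arrdc3 (r = 0.951) and Inpp5k (r = 0.943), Jag2 like Mapk11 (0.951) and Ralb (0.945), Hey1 like Slc2a1 (0.938), and Hes1 like Mzt1 (0.897) and 3830406C13Rik (0.874). These points share the group structure of the libraries, so the coefficients are descriptions. Slc2a1, the glucose transporter GLUT1, was called higher in Aged Bleo than in Aged Sham by 2.08 on the log2 scale (SE 0.59, DESeq2 adjusted p = 0.0138). It was also called higher in Young Bleo than in Young Sham by 2.25 (SE 0.52, DESeq2 adjusted p = 0.000425), and Hey1 was called in neither of these comparisons. In the aged libraries the macrophage markers summed to 195 to 1396 FPKM in Aged Bleo and 50.1 to 162 FPKM in Aged Sham, and their part in the Hey1 values was not tested.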

How the data were processed

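RNA was sequenced from sorted lung ECs in 16 libraries, grouped by their titles. Per the submitters' notes and the study's methods, paired-end reads were mapped to mm10 by STAR 2.5.2b, and Subread featureCounts within MAPRSeq gave the gene counts. The authors deposited raw read counts and FPKM values per gene and library, where FPKM is the count scaled to the gene's length and a library total. Annotation release, strand setting and the rule for reads with several places are not given in the sources used here. The labels name a SMART-Seq cDNA kit with Nextera libraries and the study's methods name TruSeq with poly(A) selection.

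The deposited counts were fitted with DESeq2 1.42.0 (R 4.3.3, Wald test, all 16 libraries, group as the only term, Benjamini-Hochberg adjustment over all genes tested). A gene was called at an adjusted p of at most 0.05 and a log2 fold change of at least 0.5 in size, two-sided. The tool, the adjustment and these thresholds follow the study's methods, while the joint fit, its group term and the version were chosen here. edgeR 4.0.16 (quasi-likelihood), limma 3.58.1 (voom on counts, trend on log2(FPKM + 0.1) and log2(FPKM + 1) for genes at 0.5 FPKM or more in 3 libraries), other size factors, filters and fits on the compared groups, and each library left out in turn, were the alternatives. Normalized counts are counts divided by DESeq2 size factors. Scripts were tested on simulated data. The 25 pairs of replicates differed by more than sampling noise (chi-square per degree of freedom 35.1 to 459, Spearman 0.940 to 0.985). Sequence copies were sought with BLAST 2.17.0 among GENCODE transcripts, at 98% identity over 200 bases or more.

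The members and all gene lists were chosen with earlier results of these data known. Text names every member, Notch3, Heyl and Nrarp, called genes of the other lists (at most 4 per list and comparison, by adjusted p), and for 4 members the 2 most correlated genes with a mean of at least 50 normalized counts, of which 1 is not reported here. Promoter motifs were chosen after the windows had been searched.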

Additional observations from a re-analysis of the deposited data

Results flagged for a closer look

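Among 39 sets of values (a gene in a group of 4 or 5 libraries), 2 held a library whose gap to the nearest other, as a share of the group's range, passed Dixon's 95% critical value, and chance alone flags about 5% of such sets. Hey2 in Young Sham was highest in replicate 25, at 411.6 normalized counts, with a gap of 0.842 of the range. Heyl in Young Sham was highest in replicate 22, at 1695 normalized counts, with a gap of 0.751 of the range. The same library, Young Sham 22, also held the highest Notch3 value of its group (1429 normalized counts).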

How the results depend on the processing

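The calls of Dll4 and Jag2 in Young Bleo against Young Sham held in every alternative and every fit that left out a library of these groups. The number of members called moved to 1 in Aged Sham against Young Sham and to 2 in Aged Bleo against Young Sham in the fit on the compared groups only, and to 2 in Young Bleo against Young Sham with limma voom, which lost Hes1. Leaving out single libraries gave 0 to 1 members called in Aged Sham against Young Sham, 2 to 4 in Young Bleo against Young Sham, 0 to 2 in Aged Bleo against Aged Sham, 0 to 2 in Aged Bleo against Young Sham, 0 in Aged Bleo against Young Bleo and 0 to 1 for the difference of responses. Over the members' log2 fold changes, 515 of 518 values from other settings and 551 of 570 from fits without a library kept their side of the threshold, none of the called values changed direction, and 4 and 23 uncalled values changed sign. Of 29 calls in the other pathway lists, 11 held in all settings and fits and 18 were lost in at least 1. The cause was not tested. The ratio of Dll4 to Jag1 was 28.7, 8.96, 20.3 and 15.6 per kilobase of normalized counts as well. Library scaling cancels in a ratio within a library, so this match was fixed in advance and does not test the processing. Across all genes the tool mattered more: edgeR called 158 genes against 621 with DESeq2 in Aged Sham against Young Sham, 1793 against 2578 in Young Bleo against Young Sham, 146 against 1080 in Aged Bleo against Aged Sham, 1043 against 1800 in Aged Bleo against Young Sham, 8 against 190 in Aged Bleo against Young Bleo and 1 against 74 for the difference of responses, and over all settings and fits these counts ran over 104 to 801, 1520 to 3339, 53 to 1492, 904 to 2274, 8 to 469 and 0 to 226. With 3 Aged Sham libraries, comparisons with that group rest on few values, and Notch2, Hey2 and Rbpj have the fewest counts of the members. No paired analysis was possible because no replicate number occurs in more than 1 group.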
